A study of Mus musculus with 6 samples.

Results

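Adhfe1, D2hgdh, Aldh5a1, Idh1 and Idh2 are 5 genes whose enzymes make or remove 2-hydroxyglutarate and 4-hydroxybutyrate. They were taken by symbol from a table of 48432 genes, and all 5 were among the 16533 genes that passed the filter on low counts. Adhfe1 was picked because its transcript was strongly reduced in the comparison described here, so its values are given as a description with no test. The other 4 were listed for what their enzymes do.

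The data are RNA sequencing of liver from 10-week-old mice, with 6 libraries in all. The control group, Ctl, was labelled Albumin-Cre, a transgene that expresses Cre recombinase under the albumin promoter, which is active in hepatocytes (n = 3 libraries). The other group, Li-KO, was labelled as a knockout of Klf15 that is specific to the liver (n = 3 libraries). Klf15 is a Kruppel-like zinc finger transcription factor, and the comparison asks which liver transcripts differ after its knockout. The labels do not give the exon removed, the sex, the feeding state or the hour of sampling, and they do not say whether Li-KO mice also carry Albumin-Cre. Nothing in them says that each library is a different mouse, so the p-values reflect only the spread of these libraries, which may be technical.

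The enzyme encoded by Adhfe1, hydroxyacid-oxoacid transhydrogenase, is an iron-dependent alcohol dehydrogenase of mitochondria. It oxidises 4-hydroxybutyrate to succinic semialdehyde and in the same reaction reduces 2-oxoglutarate to D-2-hydroxyglutarate. The products then have separate exits: Aldh5a1 encodes succinic semialdehyde dehydrogenase, which makes succinate, and D2hgdh encodes the dehydrogenase that turns D-2-hydroxyglutarate back into 2-oxoglutarate. Idh1, in the cytosol and peroxisomes, and Idh2, in mitochondria, encode the NADP-dependent isocitrate dehydrogenases that make 2-oxoglutarate, and mutant forms of both make D-2-hydroxyglutarate in tumours.

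The total count was 30132496 to 42782324 fragments per library. Klf15 had 345, 174 and 196 CPM in the control libraries (replicates 0, 1 and 2, the order used throughout) against 54.3, 41.6 and 51.8 CPM in the knockout libraries, where CPM is the count scaled to the normalised library total. Its log2 fold change, Li-KO minus Ctl, was -2.28 ± 0.26 (SE), with an adjusted p of 0.00275 by edgeR's quasi-likelihood test. The Li-KO mean was 20.6% of the Ctl mean, and the source of the remaining Klf15 RNA was not tested. Of 59 markers of hepatocytes, other liver cells, blood cells and other organs, 39 were tested and 1, the bile duct gene Sox9, passed the test (lower in Li-KO), while the 6 bile duct markers together summed to 33.5 to 63.8 CPM in the controls against 48.0 to 152 CPM in the knockouts. Of the 39 tested markers, DESeq2 called 2 higher and 4 lower in Li-KO. Over all 16533 genes, edgeR called 12.0%, and DESeq2 called 1603 higher and 1555 lower. The summed hepatocyte markers that could be measured spanned 14584 to 23377 CPM in the controls against 17806 to 21712 CPM in the knockouts, and Alb and Cps1 were skipped in the deposited table. The summed erythroid markers spanned 608 to 674 CPM in the controls against 246 to 479 CPM in the knockouts, none of the 4 called. Kidney and muscle markers were all below the count filter, with Kap, Slc12a1, Myh4 and Ckm at 0 in every library. Whether these differences bear on the genes below was not tested.

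Adhfe1 (ENSMUSG00000025911.14, chromosome 1, 9547948 to 9580673, plus strand, mm10) was strongly lower in Li-KO liver. The control libraries held 4889, 3760 and 5072 of its fragments, and the knockout libraries held 227, 137 and 124. Scaled to the library, these were 117, 101 and 135 CPM against 7.32, 4.40 and 3.01 CPM. The lowest Ctl library was 13.8 times the highest Li-KO library, so the groups were far apart. The means were 118 ± 16.7 for the controls against 4.91 ± 2.20 CPM for the knockouts (SD, n = 3 each), 24.0-fold lower, or 4.17% of the Ctl level. Its log2 fold change of -4.59 was the 24th lowest of 16533 genes and the 4th lowest of the 1947 genes with a Ctl mean of 100 CPM or more. Adhfe1 was picked for this loss and the second set is defined by the Ctl level, so both ranks are only a description. In bulk liver, fewer cells that express a gene and less of its RNA per cell cannot be told apart.

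Within the groups, the order of the libraries for Adhfe1 was not that of Klf15. Ctl replicate 0 held the highest Klf15 level of the 6 libraries, 345 CPM, and an Adhfe1 level of 117 CPM, between the other Ctl libraries. Among the Li-KO libraries, Adhfe1 was highest in replicate 0 (7.32 CPM) and lowest in replicate 2 (3.01 CPM), whose Klf15 levels were 54.3 and 51.8 CPM. With 3 libraries a group these are single values and no relation was tested.

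Of the 50-base words in its annotated transcripts (GENCODE M21), 1.58% also occur in another gene, the opposite-strand transcript 2610203C22Rik. That transcript overlaps Adhfe1 and had at most 51 fragments in a Ctl library and at most 39 in a Li-KO library. Of the 6 tested genes that start within 200 kb of Adhfe1, 0 passed the test by edgeR, where 12.0% of all genes were called. Of the 6, 1 had an unadjusted p under 0.05, and 0 were called by limma-voom or by DESeq2, which gave an adjusted p for 3 of them. Rrs1, a ribosome biogenesis factor whose gene lies just upstream of Adhfe1 on the same strand, had 22.6, 27.1 and 23.6 in the control libraries against 18.5, 34.9 and 20.7 CPM in the knockout libraries (log2 fold change 0.01 ± 0.23, adjusted p = 0.976 by edgeR). The other 5 were low: Vxn, Mybl1, Gm7512, 2610203C22Rik and 1700034P13Rik had Ctl means of 0.357, 1.59, 0.493, 1.10 and 0.684 CPM, and their adjusted p by edgeR ran from 0.153 to 0.997. Rrs1 was the only one of the 6 with a Ctl mean above 1.59 CPM, and its libraries overlapped between the groups. For 1700034P13Rik they did not overlap, with 0.959, 0.511 and 0.584 CPM for the controls against 0.322, 0.289 and 0.316 CPM for the knockouts (log2 fold change -1.14 ± 0.48, unadjusted p = 0.0417 and adjusted p = 0.153 by edgeR). Over all genes tested, 17.8% did not overlap and were lower in Li-KO.

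Transcripts of the other 4 enzymes did not pass the test. By edgeR's quasi-likelihood test 0 of the 4 were called at an adjusted p under 0.05, where 12.0% of all 16533 genes were called. The count was also 0 at an unadjusted p under 0.05, and 0 by DESeq2, by limma-voom and by limma on FPKM. The Ctl and Li-KO libraries overlapped for each of the 4, whereas the groups did not overlap in 35.2% of all genes tested. In the plot of log2 fold changes with their intervals these 4 genes lie next to the line of no change.

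**Figure D1:**
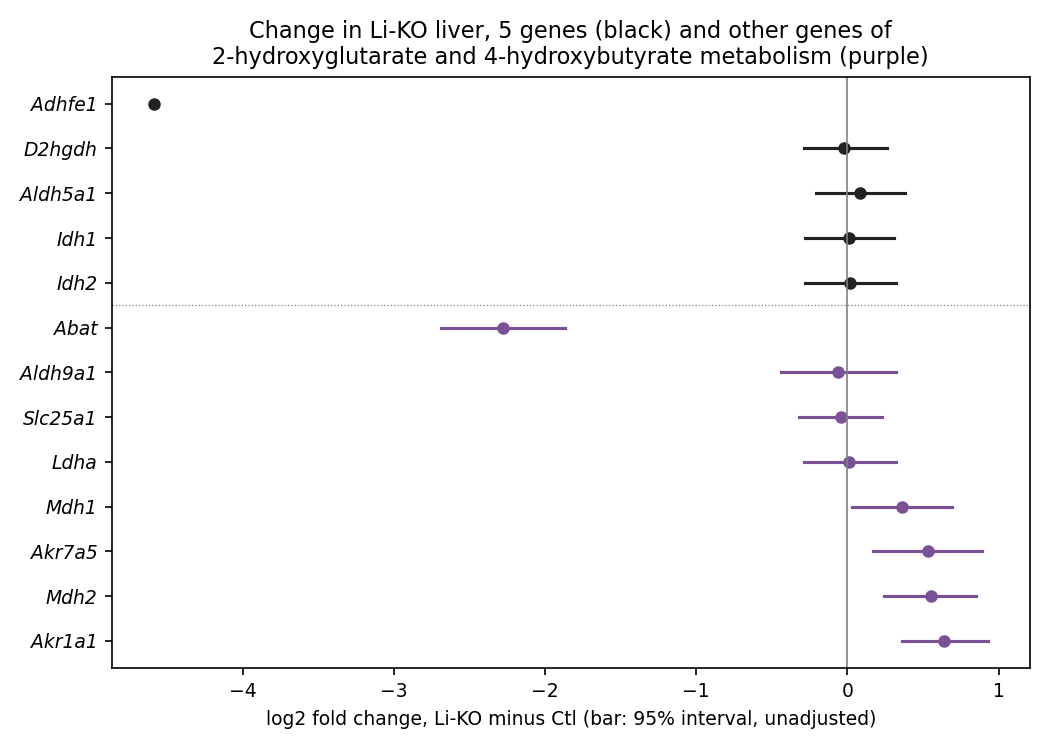
The horizontal axis is the log2 fold change, Li-KO minus Ctl, for the 5 genes (black) and 8 of the 9 tested genes of a wider list of 2-hydroxyglutarate and 4-hydroxybutyrate metabolism (purple), with bars for the unadjusted 95% interval of edgeR. Adhfe1, at -4.59, has no bar because it was picked on this comparison, and Abat is at -2.28 while D2hgdh, Aldh5a1, Idh1 and Idh2 lie between -0.02 and 0.08.

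D2hgdh (ENSMUSG00000073609.9, chromosome 1, 93824909 to 93852348, plus strand), which removes the D-2-hydroxyglutarate that Adhfe1 makes, had 28.5, 31.2 and 27.7 in the control libraries against 30.8, 27.8 and 27.8 CPM in the knockout libraries. The 6 libraries differed by at most 1.13 times. Its log2 fold change was -0.02 ± 0.12 with a 95% interval of -0.29 to 0.26 (adjusted p = 0.942, edgeR), so a change beyond 0.817-fold or 1.19-fold lies outside the interval. Of its 50-base words, 17.8% also occur in the genes Gm18666 and Gm7889, so part of its fragments could be shared.

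Aldh5a1 (ENSMUSG00000035936.6, chromosome 13, 24907579 to 24937661, minus strand), which takes succinic semialdehyde to succinate, had 113, 111 and 109 in the control libraries against 103, 114 and 136 CPM in the knockout libraries. The Ctl libraries were close together and the Li-KO libraries lay on both sides of them. The log2 fold change was 0.08 ± 0.13 with a 95% interval of -0.21 to 0.38 (adjusted p = 0.717, edgeR). The opposite-strand transcript 9330162012Rik overlaps it and had at most 402 fragments in Ctl and 435 in Li-KO. With 13.7% of the 50-base words of Aldh5a1 found there or in 4932702P03Rik, and with the strand setting of the counting not given in the sources used here, a small part of its counts is uncertain.

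Idh1 (ENSMUSG00000025950.16, chromosome 1, 65158616 to 65186500, minus strand) had 675, 637 and 682 in the control libraries against 616, 716 and 682 CPM in the knockout libraries. Its log2 fold change was 0.01 ± 0.13 with a 95% interval of -0.28 to 0.31 (adjusted p = 0.954, edgeR). Idh2 (ENSMUSG00000030541.16, chromosome 7, 80094846 to 80115392, minus strand) had 132, 115 and 124 in the control libraries against 143, 121 and 111 CPM in the knockout libraries. Its log2 fold change was 0.02 ± 0.13 with a 95% interval of -0.28 to 0.32 (adjusted p = 0.939, edgeR). No 50-base word of either gene occurs in another gene's transcripts. The upper bound of the interval was 1.24-fold for both, and the lower bounds were 0.825-fold and 0.826-fold. The gene model Gm45203 lies on the same strand as Idh2 and had at most 72 fragments in a library.

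Levels of different genes can be set side by side only per length, for which the deposited FPKM (fragments scaled to gene length and library size) was used. In Ctl liver the order was Idh1 at 215 ± 7.49 FPKM, Idh2 at 52.5 ± 3.83, Adhfe1 at 26.4 ± 3.75, Aldh5a1 at 14.6 ± 0.229 and D2hgdh at 6.93 ± 0.376 FPKM (SD, n = 3). In Li-KO liver it was Idh1 at 213 ± 19.2 FPKM, Idh2 at 52.0 ± 5.58, Aldh5a1 at 15.2 ± 1.95, D2hgdh at 6.40 ± 0.25 and Adhfe1 at 1.09 ± 0.505 FPKM. Neighbours in either order did not overlap between libraries, so Adhfe1 went from the third place to the last while the other 4 kept their order, as the plot of FPKM by library shows.

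**Figure D2:**
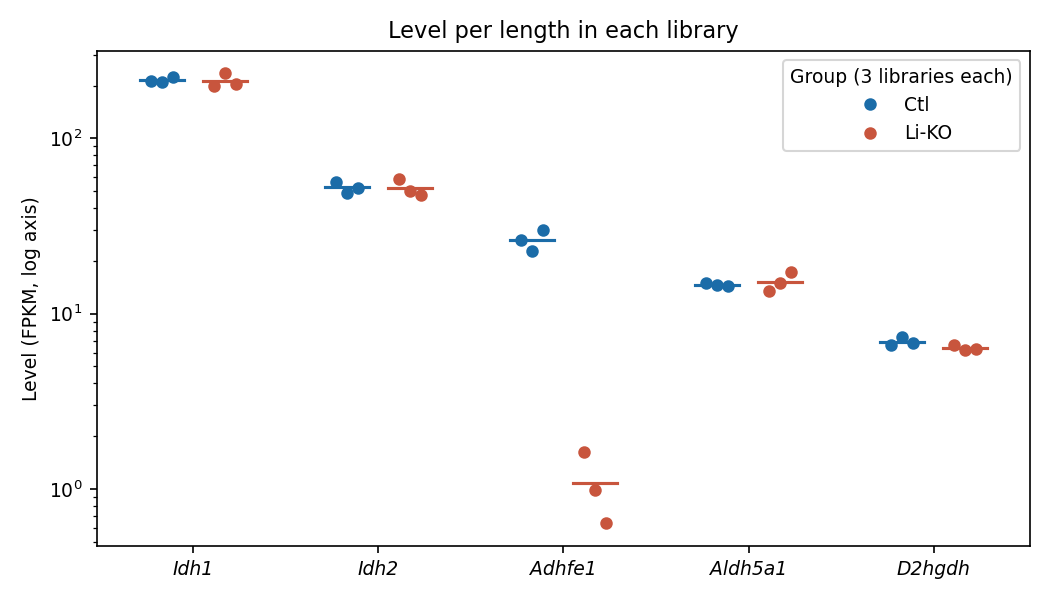
The vertical axis is the FPKM of each library on a log scale for the 5 genes, with 1 point per library (3 Ctl in blue, 3 Li-KO in red) and a line at the group mean. Adhfe1 lies between 22.7 and 30.2 FPKM in the Ctl libraries and between 0.639 and 1.63 FPKM in the Li-KO libraries, the widest gap of the 5 genes.

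Ratios within a library do not depend on how it was scaled. The level of Adhfe1 relative to Aldh5a1, per length, was 1.76, 1.57 and 2.10 in the control libraries against 0.122, 0.0661 and 0.0369 in the knockout libraries. Relative to D2hgdh the control libraries gave 3.95, 3.09 and 4.45 and the knockout libraries 0.245, 0.160 and 0.101. Transcripts of the enzyme that makes D-2-hydroxyglutarate from 4-hydroxybutyrate thus outnumbered those of the enzymes for its products in each Ctl library and were fewer in each Li-KO library. The ratio of Idh1 to Idh2 was 3.77, 4.30 and 4.28 for the controls against 3.42, 4.68 and 4.31 for the knockouts, with a mean log2 of 2.04 in both groups and an exact two-sided permutation p of 1 (the smallest this design allows is 0.1).

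Promoter sequence could be read for 4 of the 5 genes. It is shown because Kruppel-like factors bind CACCC boxes and GC-rich boxes. The gene without a promoter sequence was Adhfe1, and the other 4 did not pass the test. Motifs of changed and unchanged genes among the 5 therefore cannot be compared. The stretches come from RefSeq promoters on GRCm38.p6, run 5′ to 3′ towards the start of a RefSeq transcript, and leave out bases that lie in an annotated exon of a protein-coding gene. For D2hgdh that start lies inside the GENCODE gene, whose outermost start is upstream of the stretch. Capitals mark CACCC (or GGGTG, the same letters on the other strand) and GGGCGG (or CCGCCC). The positions are D2hgdh at chr1:93825052-93825239, plus strand, Aldh5a1 at chr13:24937662-24937911, minus strand, Idh1 at chr1:65186501-65186682, minus strand, and Idh2 at chr7:80115393-80115600, minus strand. Adora1, one of the genes most like Adhfe1 in these libraries, is shown beside them at chr1:134235458-134235707, minus strand.
D2hgdh: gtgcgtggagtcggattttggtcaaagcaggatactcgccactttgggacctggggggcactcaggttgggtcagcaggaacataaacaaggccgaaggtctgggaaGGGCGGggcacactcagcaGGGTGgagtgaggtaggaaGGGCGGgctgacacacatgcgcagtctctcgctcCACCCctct
Aldh5a1: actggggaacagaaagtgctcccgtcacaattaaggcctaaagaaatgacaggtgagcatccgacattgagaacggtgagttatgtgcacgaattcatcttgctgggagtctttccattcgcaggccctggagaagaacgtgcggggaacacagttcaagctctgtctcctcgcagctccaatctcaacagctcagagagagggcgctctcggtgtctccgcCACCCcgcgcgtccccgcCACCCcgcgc
Idh1: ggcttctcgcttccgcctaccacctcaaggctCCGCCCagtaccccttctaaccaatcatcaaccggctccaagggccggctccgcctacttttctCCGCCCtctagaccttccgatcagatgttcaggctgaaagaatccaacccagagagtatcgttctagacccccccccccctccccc
Idh2: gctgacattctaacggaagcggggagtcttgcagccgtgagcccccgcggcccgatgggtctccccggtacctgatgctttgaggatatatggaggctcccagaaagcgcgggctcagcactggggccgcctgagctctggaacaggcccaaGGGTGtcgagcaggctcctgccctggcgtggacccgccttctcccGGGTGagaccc
Adora1: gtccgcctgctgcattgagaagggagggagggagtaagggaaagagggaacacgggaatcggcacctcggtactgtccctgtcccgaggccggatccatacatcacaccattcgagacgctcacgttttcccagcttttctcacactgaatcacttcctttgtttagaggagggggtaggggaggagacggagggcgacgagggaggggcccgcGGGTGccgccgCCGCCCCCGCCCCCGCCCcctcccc
The D2hgdh stretch holds 2 CACCC matches and 2 GGGCGG matches (3 and 2 in its whole window of 250 bases), and Aldh5a1 holds 2 CACCC matches, the nearer one 5 bases before its start. The stretch of Idh1, at the upstream one of its annotated starts, has 0 CACCC and 2 GGGCGG matches, and Idh2 has 2 CACCC matches and 0 GGGCGG matches (2 and 2 in its whole window). The window at the other RefSeq start of Idh1 has 2 CACCC matches and 1 GGGCGG match. Adora1 has 1 CACCC match and 3 GGGCGG matches, and 1 and 0 in the window at its other RefSeq start. Of the other genes most like Adhfe1, the windows of Apol9b hold 3 CACCC and 0 GGGCGG matches, that of Ggt6 holds 1 and 1, and that of Hpd holds 0 and 1. In windows of 250 bases before the start, CACCC on either strand is found in 52.0% of 32851 promoters, GGGCGG in 32.7% and both in 20.1%. Either motif was thus present in some windows and missing from others among the uncalled genes and among the genes most like Adhfe1.

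Genes were ranked by the distance to Adhfe1 between log2 CPM profiles over the 6 libraries, each centred on its own mean. Only genes with a mean of 10 CPM or more over the 6 libraries were used. Genes without a symbol, or whose symbol starts with Gm or LOC and a digit or ends in Rik, were left out. The nearest were Apol9b (distance 0.836, Pearson r = 0.991), Adora1 (0.857, 0.989), Ggt6 (1.248, 0.980), Hpd (1.258, 0.980) and Scara5 (1.316, 0.974). These genes were chosen for a pattern that the difference between the groups dominates, so the values are a description. Apol9b, Adora1, Ggt6 and Scara5 met the cut of 10 CPM through their Ctl levels. Apol9b, of the apolipoprotein L family, had 60.8, 55.0 and 53.3 in the control libraries against 4.93, 1.83 and 0.948 CPM in the knockout libraries. Adora1, the adenosine A1 receptor, had 30.1, 21.9 and 26.9 in the control libraries against 1.13, 0.739 and 0.972 CPM in the knockout libraries. Hpd, a dioxygenase of tyrosine breakdown, had 2440, 1714 and 1935 in the control libraries against 118, 85.2 and 130 CPM in the knockout libraries. Apol9b shared with Adhfe1 a highest Li-KO value in replicate 0 and a lowest in replicate 2, whereas the other 4 were lowest in Li-KO replicate 1. Ggt6, of the gamma-glutamyltransferase family, and Scara5, a scavenger receptor that takes up ferritin, had means of 29.2 and 41.9 CPM for the controls against 1.71 and 2.37 CPM for the knockouts.

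**Figure D3:**
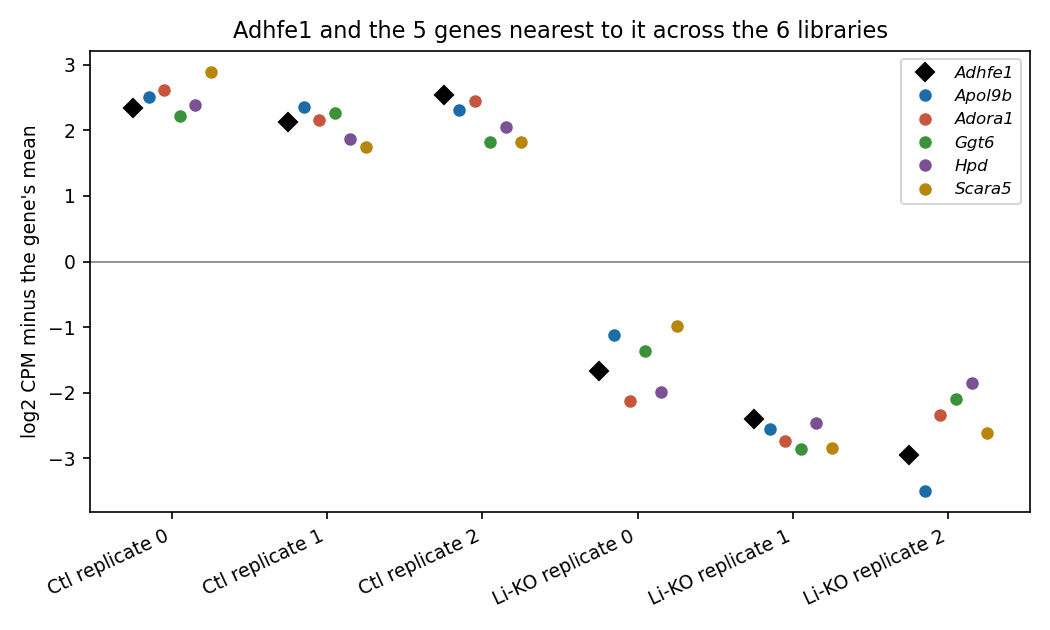
The vertical axis is log2 CPM minus the gene's own mean over the 6 libraries, for Adhfe1 (black diamonds) and the 5 genes nearest to it (coloured points), with the libraries along the horizontal axis. All 6 genes lie above 0 in the Ctl libraries and below 0 in the Li-KO libraries, and they spread more among the Li-KO libraries.

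Around these 5 genes, a list of 12 others covers the supply of GABA and 4-hydroxybutyrate and further reactions that make or remove 2-hydroxyglutarate. This list and the lists below were written with earlier results of these data known. Their shares of called genes, set beside the share of all genes, are therefore only a description. Of the 12, 9 were tested, 2 rose and 1 fell by edgeR (6.11% of all genes rose and 5.90% fell), and the median log2 fold change was 0.01 against -0.01 over all genes tested. The largest change was on the side of GABA. Abat (ENSMUSG00000057880.12, chromosome 16, 8513429 to 8621568, plus strand), the GABA transaminase that makes succinic semialdehyde, had 542, 455 and 525 in the control libraries against 131, 88.9 and 93.5 CPM in the knockout libraries. Every Li-KO library was below every Ctl library, as in 17.8% of all genes tested, and for Abat by at least 3.46 times. It fell 4.85-fold (-2.28 ± 0.18 on the log2 scale, edgeR adjusted p = 0.000739), and this call held in all 14 alternative analyses. The glutamate decarboxylase genes Gad1 and Gad2, whose enzymes make GABA, were below the count filter, with at most 6 fragments in a library.

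The aldo-keto reductases that turn succinic semialdehyde into 4-hydroxybutyrate did not overlap between the groups, with the knockout libraries on the higher side, as did 17.4% of all genes tested. Akr1a1, aldehyde reductase, had 354, 361 and 394 in the control libraries against 585, 607 and 537 CPM in the knockout libraries. It rose 1.56-fold (log2 fold change 0.64 ± 0.12, adjusted p = 0.0171, edgeR). Akr7a5 had 149, 125 and 107 in the control libraries against 190, 202 and 159 CPM in the knockout libraries, a log2 fold change of 0.53 ± 0.16 that did not pass (adjusted p = 0.06, edgeR). Both lay close to the threshold. The call of Akr1a1 ended without Ctl replicate 1 (adjusted p = 0.0744), Ctl replicate 2 (0.0512) or Li-KO replicate 1 (0.0843), and Akr7a5 passed without Ctl replicate 0 (0.0462) or Li-KO replicate 2 (0.0384), with the replicate number as a block (0.0364), without the count filter (0.0457) and by DESeq2 (0.0187). Aldh9a1, which makes GABA from an aldehyde, averaged 272 ± 15.4 in the controls against 261 ± 54.7 CPM in the knockouts (adjusted p = 0.856, edgeR).

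Malate and lactate dehydrogenases make the L form of 2-hydroxyglutarate as a side product. Mdh2, the mitochondrial malate dehydrogenase, rose by 0.55 ± 0.13 on the log2 scale (162 ± 19.2 against 236 ± 22.6 CPM, edgeR adjusted p = 0.0353). That call ended without Ctl replicate 1 or 2 (0.125 each), without Li-KO replicate 1 (0.105) or 2 (0.0586), with the replicate block (0.0511) and by limma on FPKM (up to 0.0862). Mdh1, its cytosolic form, was at 644 ± 79.1 and 825 ± 57.5 CPM (adjusted p = 0.142), Ldha at 478 ± 47.3 and 483 ± 28.7 CPM (0.955) and the citrate carrier Slc25a1 at 212 ± 9.49 and 206 ± 19.7 CPM (0.858), all by edgeR. For Mdh1 the groups did not overlap, with Li-KO higher (unadjusted p = 0.0368, edgeR), as in 17.4% of all genes tested. Phgdh, the first enzyme of serine synthesis, was below the count filter with at most 2 fragments in a library.

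2-oxoglutarate is the substrate that Adhfe1 reduces and that Idh1, Idh2 and D2hgdh make. Of 22 listed genes of 2-oxoglutarate and glutamate metabolism, 21 were tested, 6 rose and 4 fell, 47.6% against 12.0% of all genes, with a median log2 fold change of 0.06. As the list was written with earlier results known, this share does not measure an enrichment. Dhtkd1, of the dehydrogenase for 2-oxoadipate, had the lowest log2 fold change of the list, -3.16 ± 0.27 (126 ± 28.9 against 14.1 ± 4.52 CPM, edgeR adjusted p = 0.000965). Aadat, an aminotransferase that uses 2-oxoglutarate as acceptor in lysine and kynurenine breakdown, had 106, 129 and 164 in the control libraries against 35.7, 18.3 and 15.4 CPM in the knockout libraries. It fell by 2.52 on the log2 scale (adjusted p = 0.00414, edgeR). Slc25a10, the mitochondrial dicarboxylate carrier, had 165, 200 and 182 in the control libraries against 359, 370 and 309 CPM in the knockout libraries. It rose by 0.92 on the log2 scale (adjusted p = 0.00652, edgeR), and the calls of these 3 genes held in all 14 alternative analyses.

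Other genes of that list changed less firmly. Gpt, alanine aminotransferase, fell from 361 ± 55.6 to 209 ± 12.7 CPM (adjusted p = 0.0142), a call that ended without Li-KO replicate 1 (0.0646). Psat1, the aminotransferase of serine synthesis, rose from 0.648 ± 0.328 to 4.28 ± 2.13 CPM (adjusted p = 0.0205), and this ended without Ctl replicate 1 (0.0824), Ctl replicate 2 (0.0525) or Li-KO replicate 1 (0.0752) and by limma on FPKM (up to 0.0799). Of the 2-oxoglutarate dehydrogenase complex, Ogdh was at 404 ± 27.4 and 388 ± 28.1 CPM (adjusted p = 0.798), Dld at 164 ± 19.0 and 172 ± 41.5 CPM (0.854), and Dlst rose from 251 ± 17.1 to 355 ± 17.7 CPM (0.0325, all by edgeR). The call of Dlst ended without each library but Li-KO replicate 2 (up to 0.13) and by limma on FPKM (up to 0.0561). Over this list and the 12 genes above together, 8 of 30 tested genes rose and 5 fell, 43.3% against 12.0% of all genes. By limma on log2 FPKM the counts were 2 and 4, and without Ctl replicate 1, Ctl replicate 2 or Li-KO replicate 1 only 1 gene was called higher. The number called lower was 3 without Li-KO replicate 1 and 4 to 5 without another library.

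Of 20 TCA cycle genes, which include 6 of the 2-oxoglutarate list and both malate dehydrogenases, 7 rose and 1 fell, 40.0% against 12.0% of all genes, and the median log2 fold change was 0.37. Fh1, fumarase, had 354, 217 and 262 in the control libraries against 723, 621 and 574 CPM in the knockout libraries. It rose by 1.21 ± 0.20 on the log2 scale (adjusted p = 0.01, edgeR), and its call held in all 14 alternative analyses. The succinate dehydrogenase subunits Sdhc and Sdhd rose from 128 ± 21.5 to 227 ± 9.04 CPM (adjusted p = 0.0124) and from 208 ± 36.2 to 372 ± 38.1 CPM (0.0161), by edgeR. Sdha and Sdhb, of the same complex, were not called. Sdha was at 669 ± 44.5 and 780 ± 71.2 CPM (adjusted p = 0.317, edgeR). Sdhb went the other way, at 196 ± 22.9 and 152 ± 15.2 CPM (adjusted p = 0.109, edgeR). Its groups did not overlap, with Li-KO lower, as in 17.8% of all genes tested. The 1 gene that fell was Pcx, pyruvate carboxylase, which feeds oxaloacetate into the cycle (687 ± 42.3 against 481 ± 40.3 CPM, edgeR adjusted p = 0.0398). The number of genes called higher was 3 by limma on FPKM, 2 without Ctl replicate 1 or 2 and 1 without Li-KO replicate 1. The number called lower was 0 by limma on FPKM and without each library except Li-KO replicate 2. Without Li-KO replicate 1 the calls of Sdhc (adjusted p = 0.0577) and Sdhd (0.0611) ended, and so did that of Sdhd (0.0609) without Ctl replicate 1 and those of Sdhc (0.0509) and Sdhd (0.0626) without Ctl replicate 2. By limma on FPKM the call of Sdhd ended too (up to 0.0536).

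**Figure D4:**
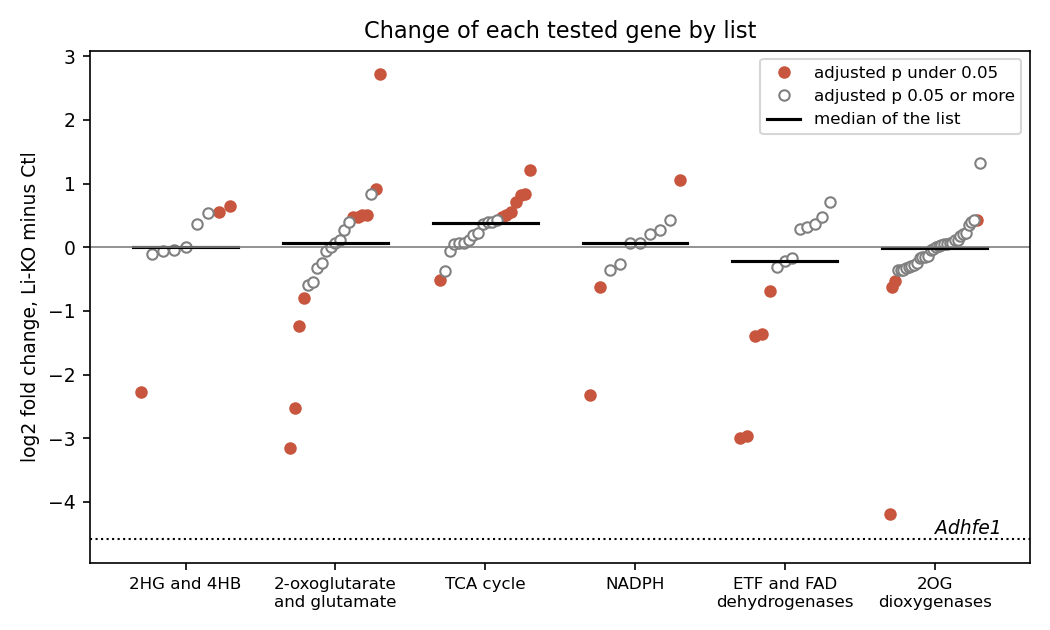
The vertical axis is the log2 fold change, Li-KO minus Ctl, of each tested gene in 6 lists, with filled points for an adjusted p under 0.05 by edgeR, open points for the rest and a bar at the list's median. The dotted line marks Adhfe1 at -4.59, below every listed gene, and the TCA cycle list has most of its points above 0 with a median of 0.37.

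Idh1 and Idh2 also reduce NADP. Of 11 other listed genes of NADPH supply, 10 were tested, 1 rose and 2 fell, 30.0% against 12.0% of all genes. Me1, cytosolic malic enzyme, had 104, 183 and 110 in the control libraries against 17.8, 41.8 and 20.1 CPM in the knockout libraries (log2 fold change -2.32 ± 0.36, adjusted p = 0.00831, edgeR), a call that held in all 14 alternative analyses too. G6pdx, of the pentose phosphate pathway, rose from 6.02 ± 1.10 to 12.6 ± 1.14 CPM (adjusted p = 0.0133), and this ended without Ctl replicate 1 (0.0633) or Ctl replicate 2 (0.0539). Aldh1l1, the folate enzyme 10-formyltetrahydrofolate dehydrogenase, fell from 1991 ± 213 to 1293 ± 103 CPM (adjusted p = 0.0365), and its call held only without Li-KO replicate 2 among the 6 fits that left out a library, with an adjusted p of up to 0.133. The call also ended by limma on FPKM (up to 0.059). On chromosome 6, Aldh1l1 starts at 90486427, downstream of Klf15 (90462576 to 90475238) on the same strand. An effect of the altered Klf15 locus on Aldh1l1 and an effect of losing the factor cannot be told apart here.

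The enzyme of D2hgdh passes its electrons to the electron transfer flavoprotein (ETF), as do several other flavin-dependent dehydrogenases of mitochondria. A list of 13 genes holds ETF, its own dehydrogenase and flavin-dependent dehydrogenases of mitochondria, of which some, such as Prodh and Sqor, pass electrons to ubiquinone without ETF. All 13 were tested and 5 fell, 38.5% against 5.90% of all genes that fell. By edgeR 0 rose, with 4 higher at an unadjusted p under 0.05, 2 higher by DESeq2, 0 by limma-voom or limma on FPKM, and 1 without the count filter or with upper-quartile scaling. All 5 that fell were dehydrogenases of amino acids or of compounds derived from them. Dmgdh, another such dehydrogenase on the list, was not called (584 ± 17.3 against 503 ± 79.9 CPM, adjusted p = 0.379, edgeR), and its groups overlapped. Ivd, of leucine breakdown, had 330, 233 and 234 in the control libraries against 39.3, 32.3 and 28.3 CPM in the knockout libraries (log2 fold change -2.99 ± 0.19, adjusted p = 0.000495, edgeR). Prodh, proline dehydrogenase, had 346, 279 and 276 in the control libraries against 25, 60.4 and 29.9 CPM in the knockout libraries (log2 fold change -2.96 ± 0.32, adjusted p = 0.00214, edgeR). Acadsb and Sardh fell by 1.40 and 1.37 on the log2 scale (adjusted p = 0.000808 and 0.00117, edgeR), and the calls of these 4 held in all 14 alternative analyses. Gcdh, of lysine and tryptophan breakdown, fell by 0.69 on the log2 scale (adjusted p = 0.0321), a call that ended without Ctl replicate 1 (0.0978), Ctl replicate 2 (0.106), Li-KO replicate 0 (0.0685) or Li-KO replicate 1 (0.102) and by limma on log2(FPKM + 1) (0.0513). ETF and the dehydrogenase that reoxidises it were not called: Etfa was at 195 ± 29.0 and 157 ± 37.0 CPM (adjusted p = 0.320), Etfb at 242 ± 10.2 and 216 ± 18.5 CPM (0.392) and Etfdh at 251 ± 59.4 and 311 ± 37.0 CPM (0.304). The 4 genes higher in Li-KO at an unadjusted p under 0.05 by edgeR were Sqor, Acadm, Acads and Chdh.

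2-hydroxyglutarate is known to inhibit dioxygenases that need 2-oxoglutarate, among them the TET and histone demethylase enzymes. Of 34 tested genes of such enzymes and of Hpd, which belongs to a related group, 1 rose and 3 fell, 11.8% against 12.0% of all genes, a share near the background. Apart from Hpd, the called genes were Plod1, a collagen lysyl hydroxylase, at 86.4 ± 3.91 and 117 ± 4.63 CPM (adjusted p = 0.0341), Asph, at 133 ± 10.8 and 92.0 ± 13.5 CPM (0.0421), and the histone demethylase Kdm6b, at 32.1 ± 5.63 and 20.8 ± 2.39 CPM (0.0447). Each of these 3 calls ended in most fits that left out a library, with adjusted p of up to 0.135, 0.15 and 0.172. By limma on FPKM the calls of Asph (up to 0.0514) and Kdm6b (up to 0.209) ended too. That of Kdm6b also ended by limma-voom (0.0503) and with the replicate block (0.0622). Tet1, Tet2 and Tet3 did not pass (adjusted p of 0.966, 0.198 and 0.152 by edgeR).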

How the data were processed

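Liver RNA of 6 libraries (3 Ctl, 3 Li-KO) was sequenced from stranded total RNA libraries, per the labels' protocols. The submitters' processing notes name STAR, Cufflinks, Cuffdiff and the build mm10. The sources used here give no tool versions, options or annotation, nor whether counting used strand. In 1 table the authors deposited estimated counts of fragments per gene and library, not normalized, per the file headers (3.29% of the values are not whole numbers), and FPKM from Cuffdiff, per the file headers. The table's conditions WT and KO and its replicate numbers were matched to Ctl and Li-KO by the sample titles. Cuffdiff skipped 77 genes in some library, which are listed there at 0 and were left out; none of the 5 genes is among them.

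Estimated counts were rounded to whole numbers. Of 48432 gene IDs, 48051 matched a symbol, and positions came from GENCODE M21. Genes were filtered with filterByExpr (minimum count 10, minimum total 15), scaled by TMM and compared by edgeR 4.0.16 (quasi-likelihood test, two-sided) with all 6 libraries and no covariate. Benjamini-Hochberg adjustment ran over the 16533 tested genes, with calls at an adjusted p under 0.05. Standard errors were derived from the fitted fold changes and F values, and 95% intervals are unadjusted. Alternatives used DESeq2 1.42.0 and limma 3.58.1 in R 4.3.3. Only the edgeR fit was tried on simulated counts, which used means and dispersions that it had estimated from these libraries. Tables and plots were made with Python 3.11.15, pandas 2.3.3 and matplotlib 3.10.9.

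The genes, gene lists and tests were chosen with earlier results of these data known. Named were Klf15, the 5 genes and the 12 other genes of 2-hydroxyglutarate and 4-hydroxybutyrate metabolism. In each other list up to 5 called genes with the smallest p were named. Also named were the tested genes starting within 200 kb of Adhfe1 and the 5 genes nearest to its profile (prior count 2). The search for the nearest genes left out those without a symbol or with one starting with Gm or LOC and a digit or ending in Rik. Ogdh, Dld, Pcx, Sdha, Sdhb, Dmgdh, Sqor, Acadm, Acads, Chdh, the Etf and the Tet genes were added after their values were seen. A few genes that the rule names are counted in their lists but not reported here. The numbers 0, 1 and 2 of the libraries were not taken as pairs, since the labels do not say that they mark shared animals or batches.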

Additional observations from a re-analysis of the deposited data

How the results depend on the processing

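The 4 genes other than Adhfe1 stayed uncalled in all 14 alternatives. Their log2 fold changes lie near 0, so the sign turned in places: Idh1 and Idh2 were at -0.02 each by limma on log2 FPKM with either pseudocount (0.1 or 1). Leaving out each library in turn, D2hgdh ranged from -0.05 to 0.06, Aldh5a1 from -0.04 to 0.19, Idh1 from -0.03 to 0.09, Idh2 from -0.07 to 0.09 and the log2 ratio of Idh1 to Idh2 differed by -0.10 to 0.13. Adhfe1 ranged from -4.97 to -4.33 and was at -3.73 by limma on log2(FPKM + 1), a pseudocount that exceeds some of its Li-KO values, and from -4.70 to -4.56 in the other alternatives. Klf15 ranged from -2.44 to -1.91 without a library. Of genes not called, Ldha was at -0.10 by limma on FPKM, Rrs1 at -0.05 by limma-voom, -0.05 and -0.04 by limma on FPKM and -0.04 with the replicate block, 2610203C22Rik at 0.05 and 0.01 and Mybl1 at 0.20 and 0.06 by limma on FPKM. Without a library, Aldh9a1 ranged from -0.15 to 0.13, Ldha from -0.04 to 0.06, Slc25a1 from -0.10 to 0.03, Gm7512 from -0.33 to 0.47, Rrs1 from -0.32 to 0.21, Vxn from -0.77 to 0.02 and Mybl1 from -0.39 to 0.07.

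Counts of calls moved more. Over all genes, 1010 rose and 976 fell; the counts were 1603 and 1555 by DESeq2, 630 and 641 or 577 and 595 by limma on FPKM (pseudocount 0.1 or 1), and 198 to 1102 and 234 to 1447 without a library. For the joint list around 2-hydroxyglutarate and 2-oxoglutarate, 8 rose and 5 fell; 2 rose by limma on FPKM, and 1 to 7 rose and 3 to 5 fell without a library. For the TCA cycle, 7 rose and 1 fell; 3 rose and 0 fell by limma on FPKM, and 1 to 6 rose and 0 to 1 fell without a library. The cause was not tested; fits without a library have fewer samples. Scaling by RLE or upper quartile left these list counts as they were. With the replicate number as a block, 956 genes rose and 1015 fell and Abat was at -2.30; deviations of same-numbered libraries from their group means had correlations of 0.018, 0.081 and 0.067, and the block ended the calls of Mdh2 and Kdm6b and added that of Akr7a5 among the genes named. Of 30 called genes that the naming rule picks besides Adhfe1, 16 kept their call in all 14 alternatives. Many of the 30 were picked in this comparison for a small p or a profile like that of Adhfe1. The share kept is thus no measure of how firm calls are in general. Gad1, Gad2 and Phgdh held 6 fragments or fewer in each library, so the count filter left them out of the main fit.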
